A study of Mus musculus with 18 samples.

Results

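Acute phase proteins are plasma and membrane proteins whose hepatic output shifts in inflammation, and 34 genes for them and for their regulators were chosen by name: serum amyloids, orosomucoids, heme- and siderophore-binding proteins, pentraxins, inter-alpha-trypsin inhibitor heavy chains, serpins, recognition proteins for lipopolysaccharide, cytokine receptors, transcription factors and the reduced proteins Ttr and Alb. Each gene was represented by its brightest probe set with a single gene symbol. In all, 33 of the 34 were found, out of 18193 genes with such a probe set, and all 33 passed the filter on dim genes that left 12885 genes for testing. Serpina3m is not analysed here.

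Livers of 18 male mice were profiled, 6 for each of 3 diets. The mice, whose strain is written both C57BL/6J and C56BL/6J in the labels, were 5 weeks old at the start and ate AIN93G diet alone (control), with 0.05% quercetin or with 1% quercetin for 20 weeks. Quercetin is a dietary flavonol. Each diet had 12 mice in cages of 3, the cage of each arrayed mouse was not given, and each array held the RNA of 1 mouse. The labels name no inflammatory stimulus, and the dark period ran in the daytime. The mice are named below by diet and replicate number, and the labels do not say what the number stands for.

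Background on these genes comes from textbook knowledge. Interleukin-6, released by macrophages and other cells, binds its receptor Il6ra and the shared signalling subunit Il6st on hepatocytes, and the signal runs through the transcription factor Stat3. Interleukin-1 acts through Il1r1, and C/EBP factors such as Cebpd cooperate at many of the target promoters. The induced products include the serum amyloids, orosomucoids and Lcn2, while albumin (Alb) and transthyretin (Ttr) are made in smaller amounts during the response. Socs3 is a feedback inhibitor induced by Stat3, and Il1rn blocks interleukin-1 at its receptor.

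Levels are log2 of the array intensity plus 16, after each array was multiplied by 1 factor that equalises the median over the tested genes. The deposited arrays were not on 1 scale, with medians over all probe sets from 14.2 to 21.99, and the factors ran from 0.817 to 1.24. Any 2 arrays correlated with r between 0.959 and 0.989, and 0 pairs of columns were identical. Hepatocyte markers were bright in every mouse, with a summed scaled intensity of 51020 to 71530, against 5143 to 9952 for Kupffer cell and macrophage markers and 96.2 to 1387 for neutrophil markers. These sums are not comparable as cell numbers. In a piece of liver, fewer cells of a type and less RNA per cell cannot be told apart.

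The widest spread between mice of 1 diet belonged to Lcn2, Saa2, Orm2 and Saa3, and the promoters of these 4 are shown. Only windows with a match to a motif searched for were eligible, and a relation to the order of mice was not tested. The windows of 300 bases span the annotated start (RefSeq, GRCm38.p6) and are printed on the strand of the gene. Capitals mark the C/EBP motif TTNNGNAA, searched on both strands, and in Saa3 also the STAT motif TTCCNGAA, which at that place overlaps a C/EBP match.
Lcn2: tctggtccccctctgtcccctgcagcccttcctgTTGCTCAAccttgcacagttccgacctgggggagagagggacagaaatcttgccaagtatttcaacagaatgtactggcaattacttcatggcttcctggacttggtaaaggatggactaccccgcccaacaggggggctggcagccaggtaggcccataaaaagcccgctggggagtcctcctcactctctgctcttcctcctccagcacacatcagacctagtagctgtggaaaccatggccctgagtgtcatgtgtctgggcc
Saa2: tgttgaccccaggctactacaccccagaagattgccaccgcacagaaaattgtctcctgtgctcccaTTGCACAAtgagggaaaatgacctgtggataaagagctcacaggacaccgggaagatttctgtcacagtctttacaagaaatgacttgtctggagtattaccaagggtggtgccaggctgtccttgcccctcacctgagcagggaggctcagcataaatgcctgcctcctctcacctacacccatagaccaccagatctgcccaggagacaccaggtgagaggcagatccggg
Orm2: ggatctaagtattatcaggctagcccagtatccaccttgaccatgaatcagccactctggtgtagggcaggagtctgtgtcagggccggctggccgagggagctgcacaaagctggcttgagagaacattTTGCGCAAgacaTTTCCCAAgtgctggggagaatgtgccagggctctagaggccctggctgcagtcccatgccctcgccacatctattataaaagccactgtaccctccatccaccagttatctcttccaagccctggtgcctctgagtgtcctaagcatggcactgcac
Saa3: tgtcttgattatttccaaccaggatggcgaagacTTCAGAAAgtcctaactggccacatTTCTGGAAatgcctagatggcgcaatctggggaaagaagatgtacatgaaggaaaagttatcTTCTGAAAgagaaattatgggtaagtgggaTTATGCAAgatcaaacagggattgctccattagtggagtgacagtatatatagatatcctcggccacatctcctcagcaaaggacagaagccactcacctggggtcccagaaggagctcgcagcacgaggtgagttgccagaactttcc
The Lcn2 window is chr2:32387690-32387989, minus strand, and its capitals begin 216 bases before the start. The Saa2 window is chr7:46751583-46751882, plus strand, with the match 183 bases before the start. For Orm2 the window is chr4:63362199-63362498, plus strand, with matches 120 and 108 bases before the start. The Saa3 window is chr7:46715627-46715926, minus strand, with matches 216, 191, 129 and 99 bases before the start.

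Promoter windows were matched for 26 members, and for genes with several windows a match in any of them was counted. TTNNGNAA was present for 19 of 26 members (73.1%), against 44.1% of 27025 genes in the same table. The palindromic form TTCNNNGAA was found for 5 members (19.2%), against 9.55% of all genes, and TTCCNGAA for 3 (11.54%), against 6.22%. A match describes letters in a window and not a bound site. The Saa genes share a chromosome 7 cluster, and the Saa1 and Saa2 windows were 95.3% identical over their alignment, against 54.2% for Saa1 and Saa3. The Orm2 and Orm3 windows on chromosome 4 were 86.6% identical. The Saa2 probe set is of a class that can cross-hybridise, so signal from a paralogue such as Saa1 cannot be told apart from that of Saa2.

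The acute phase genes varied more between mice of the same diet than most tested genes. Their median residual SD, the spread of a gene about its diet means, was 0.589 log2 units, against 0.229 over all tested genes, and 26 of 33 lay above that median. An SD over 1 was seen for 8 of 33 members (24.2%), against 56 of 12885 tested genes (0.435%). At the other end, Itih1 (0.125), Itih2 (0.137) and Agt (0.160) were among the steadier genes after scaling. Which members were steadiest depended on the scaling. As deposited, Hpx (0.071), Ttr (0.073) and Alb (0.084) had the lowest SDs, against 0.158, 0.168 and 0.152 for Itih1, Itih2 and Agt. The share of variance lying between the diet means had a median of 9.31% over the members, against 10.9% over all tested genes. Spread between mice alone also gives such a share, so it does not measure an effect of diet. This is a description of genes chosen by name with earlier results of these arrays known, and no test of the list was made.

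**Figure D1:**
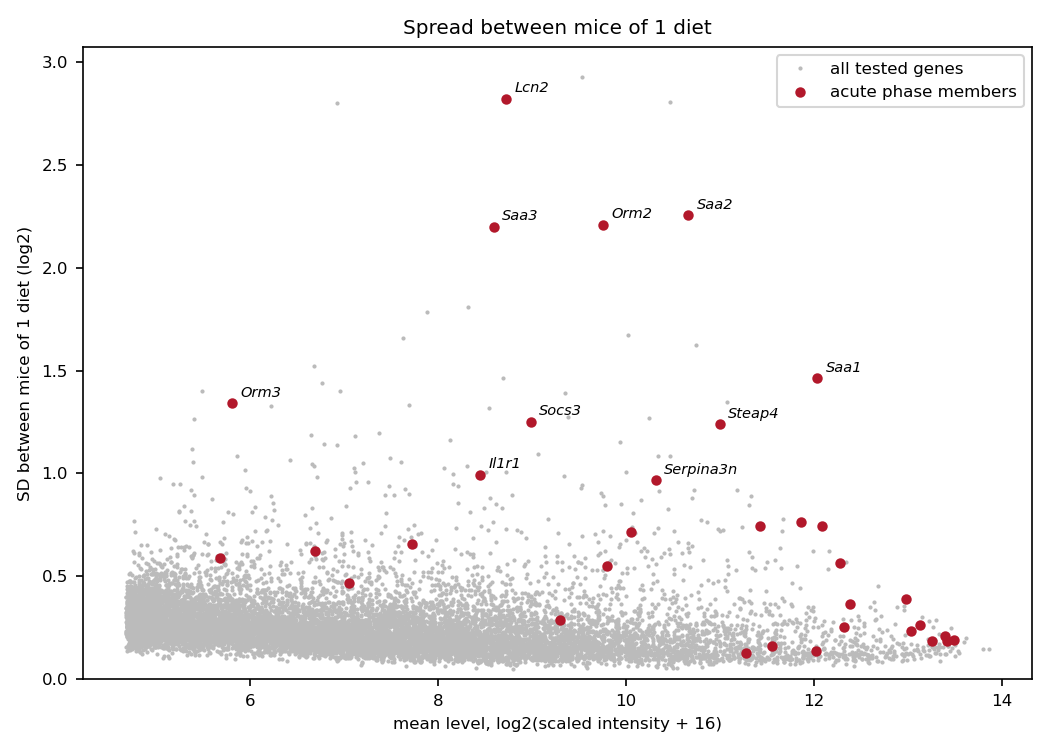
Spread between mice of 1 diet (residual SD, log2) against mean level for all 12885 tested genes (grey) and the 33 acute phase members (red), with members whose SD exceeds 0.9 named. Lcn2, Saa2, Orm2 and Saa3 stand above 2, and the brightest members lie low, at the right.

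The serum amyloids are apolipoproteins of high-density lipoprotein, of which Saa1 and Saa2 are the liver's strongly induced forms. Saa1 ranged over 4.39 log2 units across the 18 mice, from 9.35 in 0.05% replicate 5 to 13.7 in 0.05% replicate 2. By diet its lowest, median and highest levels were 10.1, 12.2 and 13.7 in control mice, 9.35, 10.8 and 13.7 in 0.05% mice, and 12.0, 12.3 and 13.5 in 1% mice. Control replicates 4 and 5, 0.05% replicates 2 and 3 and 1% replicates 5 and 6 were the 2 highest of their diets, and the 3 diets overlapped. The lowest of the 1% mice was above 4 of the 0.05% mice, which lay between 9.35 and 11.8. Saa1 averaged 12.6 ± 0.67 in 1% mice and 12.2 ± 1.39 in control mice (SD, n = 6 each), a log2 change of 0.37 ± 0.75 (SE, limma adjusted p = 0.930). In 0.05% mice it averaged 11.3 ± 2.01, which differed from control by -0.92 ± 0.75 (adjusted p = 0.958).

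Saa2 spanned 5.97 log2 units, a 62.8-fold range over the 18 mice. Its lowest, median and highest levels were 8.07, 10.7 and 13.3 in control mice, 7.44, 8.73 and 13.4 in 0.05% mice, and 9.86, 10.6 and 13.2 in 1% mice. The same pair of mice led each diet, and 0.05% replicates 4, 5 and 6 lay together between 7.44 and 7.53, below every mouse of the other diets. Saa2 differed by a log2 change of 0.44 ± 1.16 between 1% and control mice, -1.02 ± 1.16 between 0.05% and control mice and 1.47 ± 1.16 between 1% and 0.05% mice, and the limma adjusted p lay between 0.757 and 0.960.

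Saa3, a form made by macrophages and other cells as well as by liver, had few values between its low and high mice. Levels were 6.87, 7.63 and 11.2 (lowest, median, highest) in control mice, 6.79, 7.26 and 12.6 in 0.05% mice, and 6.78, 7.67 and 11.4 in 1% mice. The 2 leading mice of each diet lay between 10.57 and 12.57, and the highest of the others was at 8.30. Its diet means differed by at most 0.188, with limma adjusted p of 0.983 to 0.994. Saa4, the constitutive form, spanned 2.12 log2 units and had the same 2 leading mice in each diet.

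**Figure D2:**
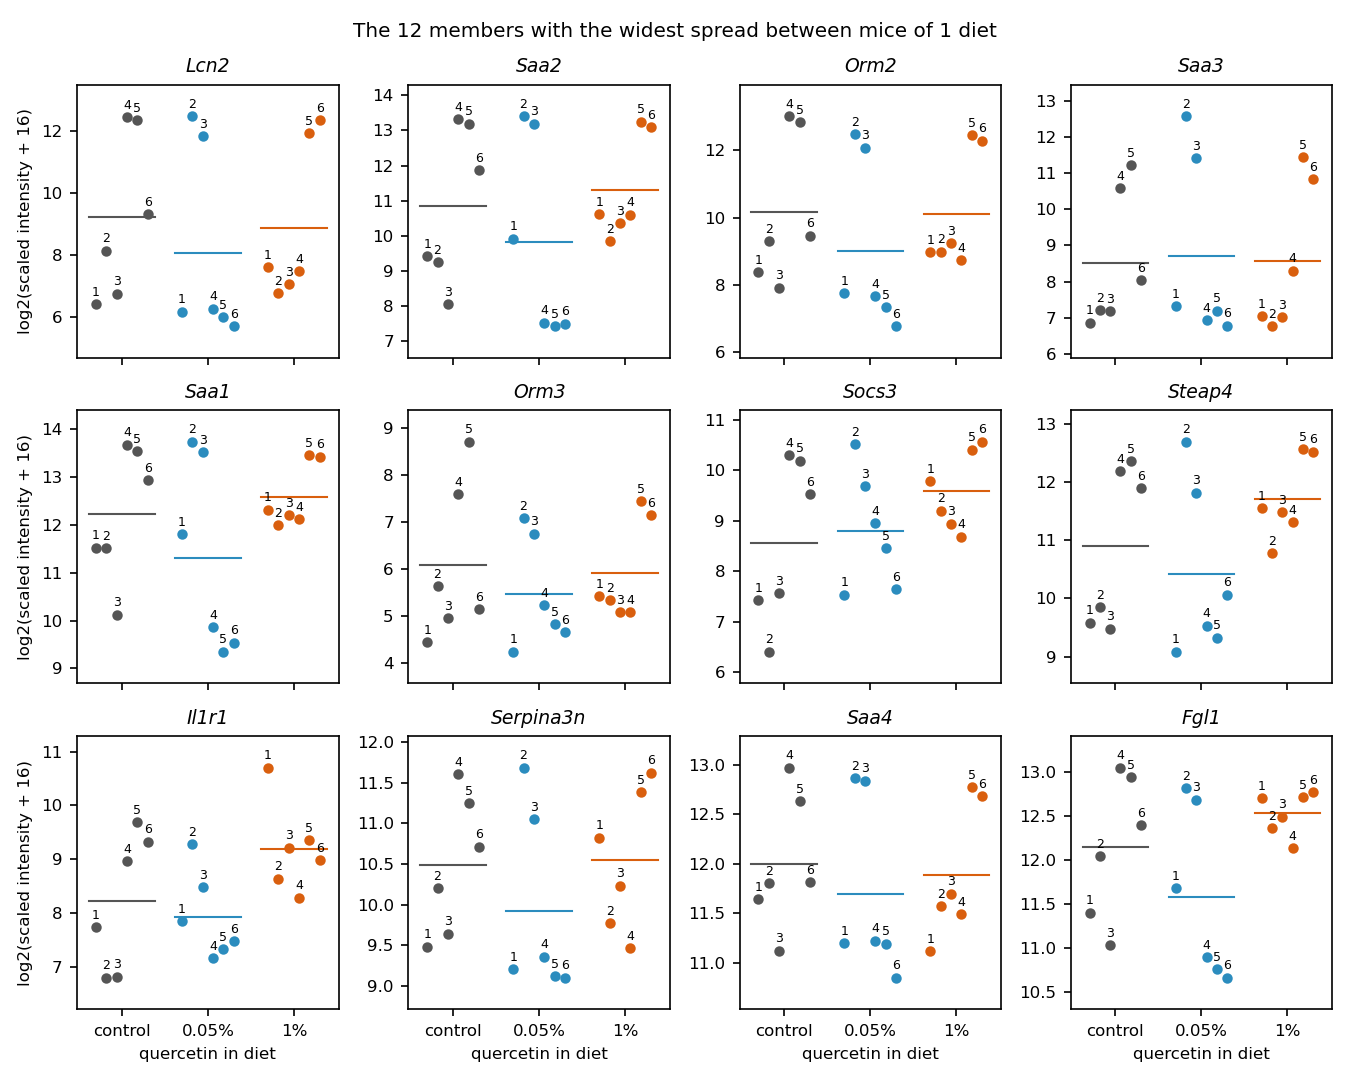
Level of the 12 members with the widest spread, one panel per gene, in control, 0.05% and 1% quercetin mice (6 each); digits are replicate numbers and bars are diet means. Control replicates 4 and 5, 0.05% replicates 2 and 3 and 1% replicates 5 and 6 lead most panels, and the diets overlap in all.

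The orosomucoids are lipocalins that bind drugs and lipids in plasma. Orm2 had lowest, median and highest levels of 7.91, 9.38 and 13.0 in control mice, 6.77, 7.70 and 12.5 in 0.05% mice, and 8.72, 9.11 and 12.5 in 1% mice, a 76.5-fold range. As for Saa3, the leading pair of each diet lay between 12.09 and 13.03, and the highest of the others was at 9.46. It differed by -0.04 ± 1.14 (log2) between 1% and control mice (limma adjusted p = 0.995) and by -1.14 ± 1.14 between 0.05% and control mice (adjusted p = 0.958). Orm3 had levels of 4.43, 5.38 and 8.71 in control mice, 4.23, 5.02 and 7.07 in 0.05% mice, and 5.07, 5.38 and 7.44 in 1% mice. Most of its low values sat close to the floor that the added 16 sets, so its range is understated there. Orm1 spanned 1.32 log2 units and had the same leading pair in each diet.

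Lcn2, which binds bacterial siderophores and is made by hepatocytes and by neutrophils, showed the largest spread of the group, an SD of 2.82 and a 112-fold range. Its lowest, median and highest levels were 6.40, 8.73 and 12.5 in control mice, 5.70, 6.21 and 12.5 in 0.05% mice, and 6.75, 7.54 and 12.4 in 1% mice. Control replicates 4 and 5 (12.5 and 12.4), 0.05% replicates 2 and 3 (12.5 and 11.8) and 1% replicates 5 and 6 (11.9 and 12.4) stood apart from the rest, of which control replicate 6, at 9.33, was highest. Lcn2 differed by -0.37 ± 1.45 (log2) between 1% and control mice, -1.17 ± 1.45 between 0.05% and control mice and 0.79 ± 1.45 between 1% and 0.05% mice (limma adjusted p 0.963, 0.962 and 0.908). Only Mt2 had a larger SD, 2.93, among the 12885 tested genes.

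Neutrophil markers were set beside Lcn2 because neutrophils hold its product. Of 13 markers listed, 11 had a probe set, 8 were tested, and Camp, Ltf and Cxcr2 were below the filter on dim genes. Their summed scaled intensity was 145 to 1387 in control mice, 96.2 to 235 in 0.05% mice and 261 to 832 in 1% mice. Control replicates 4 and 5 had sums of 1387 and 1147, and 1% replicates 5 and 6 had 597 and 832, the highest of their diets. Most of each of these sums came from the markers S100a8 and S100a9. They were at 9.46 and 8.98 in control replicate 4 and 8.85 and 8.17 in 1% replicate 6, against 5.48 and 5.61 in control replicate 3. In 0.05% replicates 2 and 3, where Lcn2 was at 12.5 and 11.8, the sums were 235 and 169, and replicate 4 of that diet also had 235. The Kupffer cell and macrophage sums were 7748 and 9952 in control replicates 4 and 5, 8293 and 7723 in 0.05% replicates 2 and 3, and 8172 and 7127 in 1% replicates 5 and 6, with the other mice between 5143 and 7528. The part of these cells in the acute phase levels was not tested.

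Steap4, Serpina3n and Fgl1 spanned 3.61, 2.58 and 2.38 log2 units over the 18 mice. Steap4, a membrane metalloreductase, had levels of 9.48, 10.9 and 12.4 in control mice, 9.08, 9.80 and 12.7 in 0.05% mice, and 10.8, 11.51 and 12.6 in 1% mice. All 6 of the 1% mice were above 4 of the 0.05% mice, with a log2 change of 1.28 ± 0.64 (limma adjusted p = 0.591). Serpina3n, a secreted protease inhibitor, ran from 9.48 through a median of 10.5 to 11.6 in control mice, 9.11, 9.29 and 11.7 in 0.05% mice, and 9.47, 10.5 and 11.6 in 1% mice. Its diets overlapped, and the limma adjusted p was 0.757 or higher in the 3 comparisons. Fgl1, a secreted fibrinogen-like protein of hepatocytes, had levels of 11.03, 12.2 and 13.0 in control mice, 10.7, 11.3 and 12.8 in 0.05% mice, and 12.1, 12.6 and 12.8 in 1% mice. Fgl1 was higher in 1% mice than in 0.05% mice by 0.95 ± 0.39 (adjusted p = 0.506), and 3 of the 0.05% mice lay below 11.

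Apcs, the pentraxin that responds most in the mouse, spanned 1.99 log2 units, against 0.90 for Crp. Lrg1 and Lbp, the binding protein that passes lipopolysaccharide to Cd14, spanned 1.76 and 2.01. The inter-alpha-trypsin inhibitor heavy chains differed among themselves: Itih3 and Itih4 spanned 1.19 and 0.92, while Itih1 and Itih2 spanned 0.46 and 0.51. Itih1, Itih3 and Itih4 have neighbouring start sites on chromosome 14. The haptoglobin gene Hp, the heme-binding Hpx and the copper oxidase gene Cp spanned 0.84, 0.68 and 0.71. Agt, the angiotensin precursor and a serpin, spanned 0.53.

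Regulators varied too. Socs3 had lowest, median and highest levels of 6.40, 8.55 and 10.3 in control mice, 7.53, 8.70 and 10.5 in 0.05% mice, and 8.68, 9.49 and 10.6 in 1% mice. The log2 change for 1% against control was 1.03 ± 0.65, the largest of the 33 members in that comparison, and did not pass (limma adjusted p = 0.678). Its probe set is of the cross-hybridising class, and the 2 other Socs3 probe sets, with r of 0.97 to the first, gave 0.68 and 0.88. Stat3 had levels of 8.81, 9.71 and 10.4 in control mice, 9.15, 9.41 and 10.6 in 0.05% mice, and 9.79, 10.1 and 10.3 in 1% mice, where its SD was 0.16 against 0.72 in control mice. The limma adjusted p of Stat3 was 0.728 or higher in each comparison. Its log2 change was 0.01 for 0.05% against control and 0.39 for 1% against 0.05%. Another Stat3 probe set, almost as bright and with r of 0.92 to the first, gave -0.25 and 0.65. The dim ones, with r of 0.12 and 0.22, gave -0.10 and -0.16 for 0.05% against control and 0.24 and -0.09 for 1% against 0.05%.

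Cebpd, the member with the lowest p in the group, had levels of 6.58, 7.15 and 8.06 in control mice, 6.35, 6.60 and 6.80 in 0.05% mice, and 6.60, 7.27 and 8.22 in 1% mice. The highest 0.05% mouse was below 5 of the 6 control mice and 5 of the 6 1% mice. Cebpd averaged 6.57 ± 0.16 in 0.05% mice and 7.27 ± 0.53 in control mice (SD, n = 6 each), a log2 change of -0.70 ± 0.25 (limma adjusted p = 0.879). In 1% mice it averaged 7.33 ± 0.59, higher than in 0.05% mice by 0.76 ± 0.25 (adjusted p = 0.412). The other Cebpd probe set, dim and with r of 0.47 to the first, gave -0.34 and 0.10 for these changes.

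Il6ra had levels of 6.30, 7.60 and 8.25 in control mice, 7.14, 7.73 and 8.30 in 0.05% mice, and 7.32, 7.67 and 9.53 in 1% mice. Il6st, the subunit shared by the interleukin-6 family, ran from 8.89 through 9.14 to 9.67 in control mice, 8.67, 9.15 and 9.62 in 0.05% mice, and 9.31, 9.52 and 9.80 in 1% mice. Its log2 change was 0.34 ± 0.16 for 1% against 0.05% (limma adjusted p = 0.552) and 0.32 ± 0.16 for 1% against control (adjusted p = 0.578). The other Il6st probe sets, with r of 0.41 to 0.79 to the first, gave 0.06 to 0.28 and 0.11 to 0.43. For 1% against 0.05%, Il6st missed an unadjusted limma p under 0.05 as deposited, with quantile or trimmed mean scaling, and with the mean of probe sets. Il1r1 had levels of 6.81, 8.35 and 9.69 in control mice, 7.17, 7.67 and 9.28 in 0.05% mice, and 8.29, 9.10 and 10.7 in 1% mice. All 6 of the 1% mice were above 4 of the 0.05% mice, with a change of 1.26 ± 0.51 (adjusted p = 0.501). For Il1rn the levels were 5.03, 5.48 and 6.55 in control mice, 4.98, 5.46 and 6.71 in 0.05% mice, and 5.29, 5.73 and 6.43 in 1% mice (limma adjusted p 0.866 or higher). Cd14 had 5.48, 6.50 and 7.80 in control mice, 5.99, 6.31 and 6.85 in 0.05% mice, and 6.51, 7.09 and 8.20 in 1% mice, and differed by 0.76 ± 0.32 between 1% and 0.05% mice (adjusted p = 0.526).

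**Figure D3:**
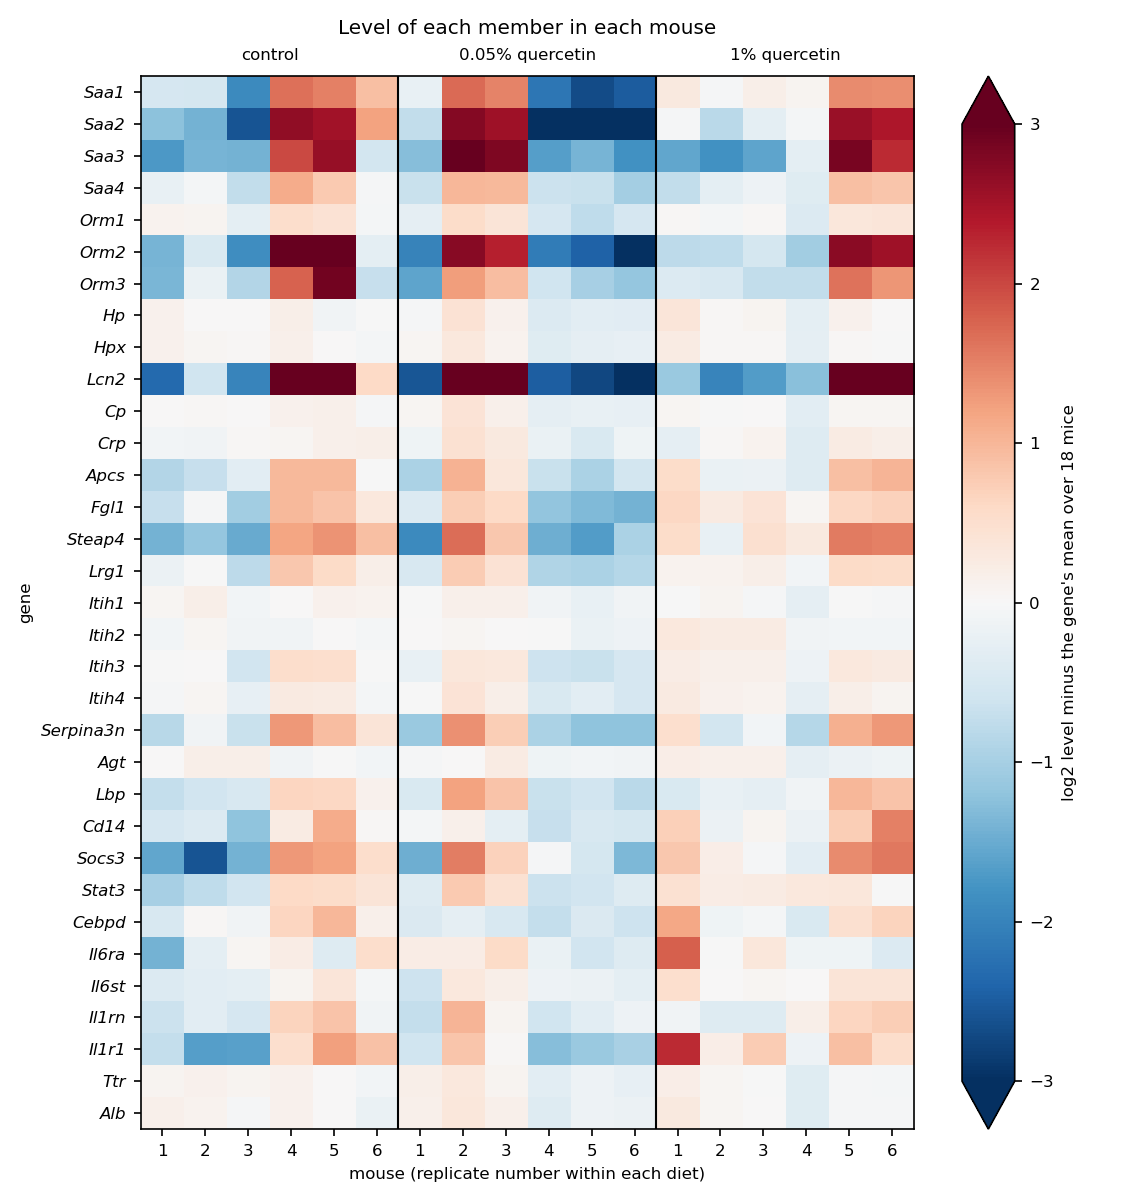
Level of each of the 33 members in each of the 18 mice (columns, by diet and replicate number) as the log2 difference from the gene's mean over all mice, with the colour scale ending at 3 in each direction. Control replicates 4 and 5, 0.05% replicates 2 and 3 and 1% replicates 5 and 6 are red for most induced genes, while Il1r1, Il6ra and Cebpd are reddest in 1% replicate 1.

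The order of mice was shared across most of the group. The 2 highest mice were control replicates 4 and 5 for 23 of 33 members, 0.05% replicates 2 and 3 for 30 members, and 1% replicates 5 and 6 for 19 members. These pairs were the most frequent of each diet among these same members, and the share over all tested genes was not counted. All 3 held together for 17 members: Saa1, Saa2, Saa3, Saa4, Orm1, Orm2, Orm3, Lcn2, Apcs, Fgl1, Itih3, Serpina3n, Lbp, Steap4, Socs3, Lrg1 and Il1rn. On values as deposited the counts were 17, 21 and 21 members, and 15 for all 3 diets together. The arrays of 0.05% replicates 2 and 3 had scaling factors of 1.24 and 1.11. Another mouse, 1% replicate 1, was highest of its diet for 12 members: Hp, Hpx, Itih2, Itih4, Stat3, Cebpd, Il6ra, Il6st, Il1r1, Agt, Ttr and Alb. Its array had a scaling factor of 1.23, and on values as deposited it was highest for 4 of them, Hp, Cebpd, Il6ra and Il1r1. Mice were not grouped by these levels, and no test compares the high mice with the others.

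Each of the other 32 members was related to Saa1 by its deviation from the diet mean over the 18 mice. At an unadjusted permutation p under 0.05, with values permuted within diet, 27 of 32 members (84.4%) were related to it, all with positive r, against 3625 of all 12884 tested genes other than Saa1, members included (28.1%), of which 1666 had positive r. With the p adjusted over all these genes, 22 members (68.8%) and 12.1% of all genes passed. On values as deposited 23 members and 21% of all genes were at an unadjusted p under 0.05, and 16 members and 4.16% of all genes passed the adjusted p. At the unadjusted p the relations lost as deposited were those of Itih1, with r of 0.65 after scaling and 0.11 as deposited, Hpx, Cebpd and Il6st. The comparison with all genes was added after seeing the data. For 6 members, Saa3, Saa4, Orm2, Lcn2, Itih2 and Il6ra, 1 gap between neighbouring mice took up 0.358 or more of the range, against 0.333 or less for the rest, so no pooled r is given. That limit was set after the values were seen, and the largest gap of Saa1 itself, 0.316 of its range, lay a little under it. Of the other 26, 23 were at an unadjusted p under 0.05, with r from 0.48 to 0.98 for Pearson and from 0.55 to 1.00 for Spearman, by which Hpx missed it (permutation p = 0.0508). Without 0.05% replicates 2 and 3, the 2 mice whose Saa1 deviation from the diet mean lay farthest from the median deviation, r lay between 0.41 and 0.97. Within single diets r was above 0 in all 3 diets for 21 of the 26.

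Saa2 had r = 0.98 and rho = 1.00 with Saa1 (permutation p = 1e-05 for both, the smallest these resamples give, adjusted over all genes 0.0014 and 0.00167). Fgl1 had r = 0.96 and rho = 0.97, and Lrg1 r = 0.97 and rho = 0.94, with the same permutation and adjusted p. Socs3 had r = 0.74 and rho = 0.75 (permutation p = 0.00263 and 0.0043, adjusted p = 0.0294 and 0.0407). Stat3 had r = 0.79 and rho = 0.81 (permutation p = 0.0023 and 0.00169, adjusted p = 0.027 and 0.0247), but within the 1% mice its r was -0.40, against 0.86 in control and 0.91 in 0.05% mice. Hp had r = 0.63 and rho = 0.55 (permutation p = 0.0212 and 0.0373, adjusted p = 0.106 and 0.151), and gave -0.04 within control mice and 0.95 within 0.05% mice. As deposited Hp had r = 0.715 and rho = 0.72 (permutation p = 0.00888 and 0.0103), and its r did not pass the adjusted p. Its r was then 0.45 within control, 0.94 within 0.05% and 0.50 within 1% mice, so these values depend on the scaling.

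Neither reduced protein, Ttr or Alb, had a negative pooled r with Saa1. Ttr had lowest, median and highest levels of 13.4, 13.6 and 13.6 in control mice, 13.2, 13.5 and 13.8 in 0.05% mice, and 13.1, 13.5 and 13.7 in 1% mice. Alb had 13.2, 13.5 and 13.6 in control mice, 13.0, 13.4 and 13.7 in 0.05% mice, and 13.0, 13.4 and 13.7 in 1% mice. After scaling, the highest mouse for Ttr, Alb and Saa1 was 0.05% replicate 2, whose array had a factor of 1.24, and on values as deposited it was control replicate 5 for all 3 genes. With Saa1, Ttr had r = 0.50 and rho = 0.41 (permutation p = 0.0839 and 0.137, adjusted p = 0.245 and 0.335), and Alb r = 0.50 and rho = 0.51 (permutation p = 0.0727 and 0.0678, adjusted p = 0.223 and 0.215). After scaling, high r was seen only within 0.05% mice, 0.88 for Ttr and 0.89 for Alb. It was -0.30 and -0.07 within control mice and 0.009 and -0.003 within 1% mice. As deposited, r within 0.05% mice was only 0.23 for Ttr and 0.38 for Alb. It was then 0.355 and 0.39 within control mice and -0.09 and -0.23 within 1% mice. Without 0.05% replicates 2 and 3 the pooled r was 0.32 for Ttr and 0.31 for Alb. The difference between diets was at most 0.10 for Ttr and 0.04 for Alb, and the limma adjusted p was 0.842 or higher.

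The brightest members followed the array scale, so their values here depend on it. For Alb, Ttr, Hp, Hpx, Cp and Itih4 the level correlated with the log2 of the array's scaling factor with r from 0.76 to 0.90 after scaling, and from -0.36 to 0.27 as deposited. The range over the 18 mice was 0.72 for Alb after scaling and 0.30 as deposited, and 0.68 and 0.31 for Ttr. As deposited, the r with Saa1 was 0.23 for Ttr and 0.31 for Alb, with permutation p of 0.458 and 0.289. The part of the scaling in their order of mice was not tested. The range of Lcn2, by contrast, was 6.80 after scaling and 6.68 as deposited.

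**Figure D4:**
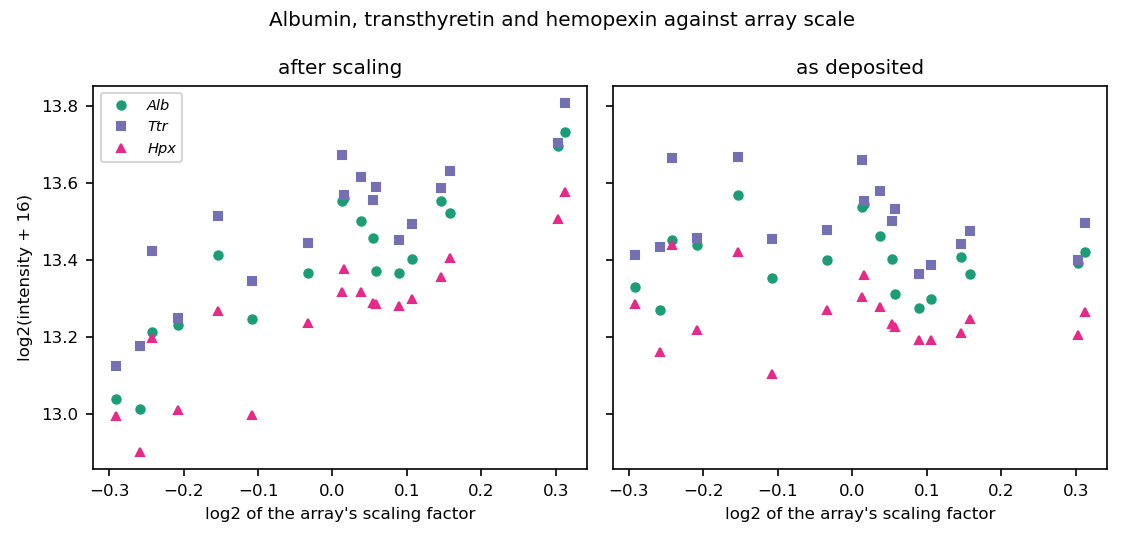
Level of Alb, Ttr and Hpx (log2 of intensity plus 16) in the 18 arrays against the log2 of the array's scaling factor, after scaling (left) and as deposited (right). After scaling the levels climb with the factor, and as deposited they do not.

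Across the diets, no member passed. For 1% against control, 1 of 12885 genes had a limma adjusted p under 0.05 (0.00776%), the gene Tead1, named after its value was seen, and 0 of 33 members did. At an unadjusted p under 0.05 the counts were 1136 of all genes (8.82%) and 0 of 33 members. The median log2 change was 0.07 over the members and -0.01 over all tested genes. In direction, 21 members were higher and 12 lower, and 47.3% of all tested genes were higher. The members' adjusted p was 0.578 or higher. Leaving out 1 mouse moved the count of all genes passing to between 0 and 3, and it was 0 on values as deposited. The members at an unadjusted p under 0.05 numbered 3 when control replicate 5 was left out and 2 when either control replicate 4 or 1% replicate 4 was. They numbered 1 with any of control replicate 6, 0.05% replicates 1 and 2 and 1% replicates 2 and 3 omitted. In these fits 8.11% to 9.71% of all genes were at that p. The 1% and control mice overlapped for all 33 members, while they did not for 0.536% of all genes.

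For 0.05% against control, 0% of all genes and 0 members passed the adjusted p. At an unadjusted p under 0.05 there was 1 member, Cebpd, which was lower, against 648 of all genes (5.03%), of which 311 were lower (2.41% of the tested genes). The median log2 change was -0.16 over the members and -0.01 over all genes. In direction, 4 members were higher and 29 lower, and 46.0% of all tested genes were higher. The members' adjusted p was 0.879 or higher. No member's 0.05% and control mice were apart, as they were for 0.318% of all genes. Without 0.05% replicate 2 there were 5 members at an unadjusted p under 0.05. Without 0.05% replicate 3 there were 3 and without control replicate 3 there were 2. The shares of all genes at that p in these fits were 6.52%, 6.52% and 7.40%.

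For 1% against 0.05%, 0% of all genes and 0 members passed. An unadjusted p under 0.05 was reached by Fgl1, Cd14, Cebpd, Il6st and Il1r1, all higher in 1% mice, 5 of 33 members (15.2%), against 1134 of all genes (8.8%), of which 588 were higher (4.56% of the tested genes). The median was 0.34 over the members and 0.00 over all genes. In direction, 28 members were higher and 5 lower, and 49.2% of all tested genes were higher. The members' adjusted p was 0.412 or higher. The 2 diets overlapped for all 33 members, and did not for 0.675% of all genes. The count depended on single mice. It was 13 without 0.05% replicate 2, 9 without 0.05% replicate 3, 1 without 0.05% replicate 4 or 5, 2 without 0.05% replicate 6 or 1% replicate 1, and 3 without 1% replicate 5 or 6. The share of all genes at that p in these fits lay between 6.22% (without 0.05% replicate 4) and 9.97% (without 0.05% replicate 2). In the F-test for any difference among the 3 diets, 0% of all genes passed, and 1 member, Cebpd, was at an unadjusted p under 0.05, against 8.37% of all genes. The 3 comparisons share mice, so their directions are not independent of each other. Most members also varied together between mice, so a count of members is not a count of separate observations.

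**Figure D5:**
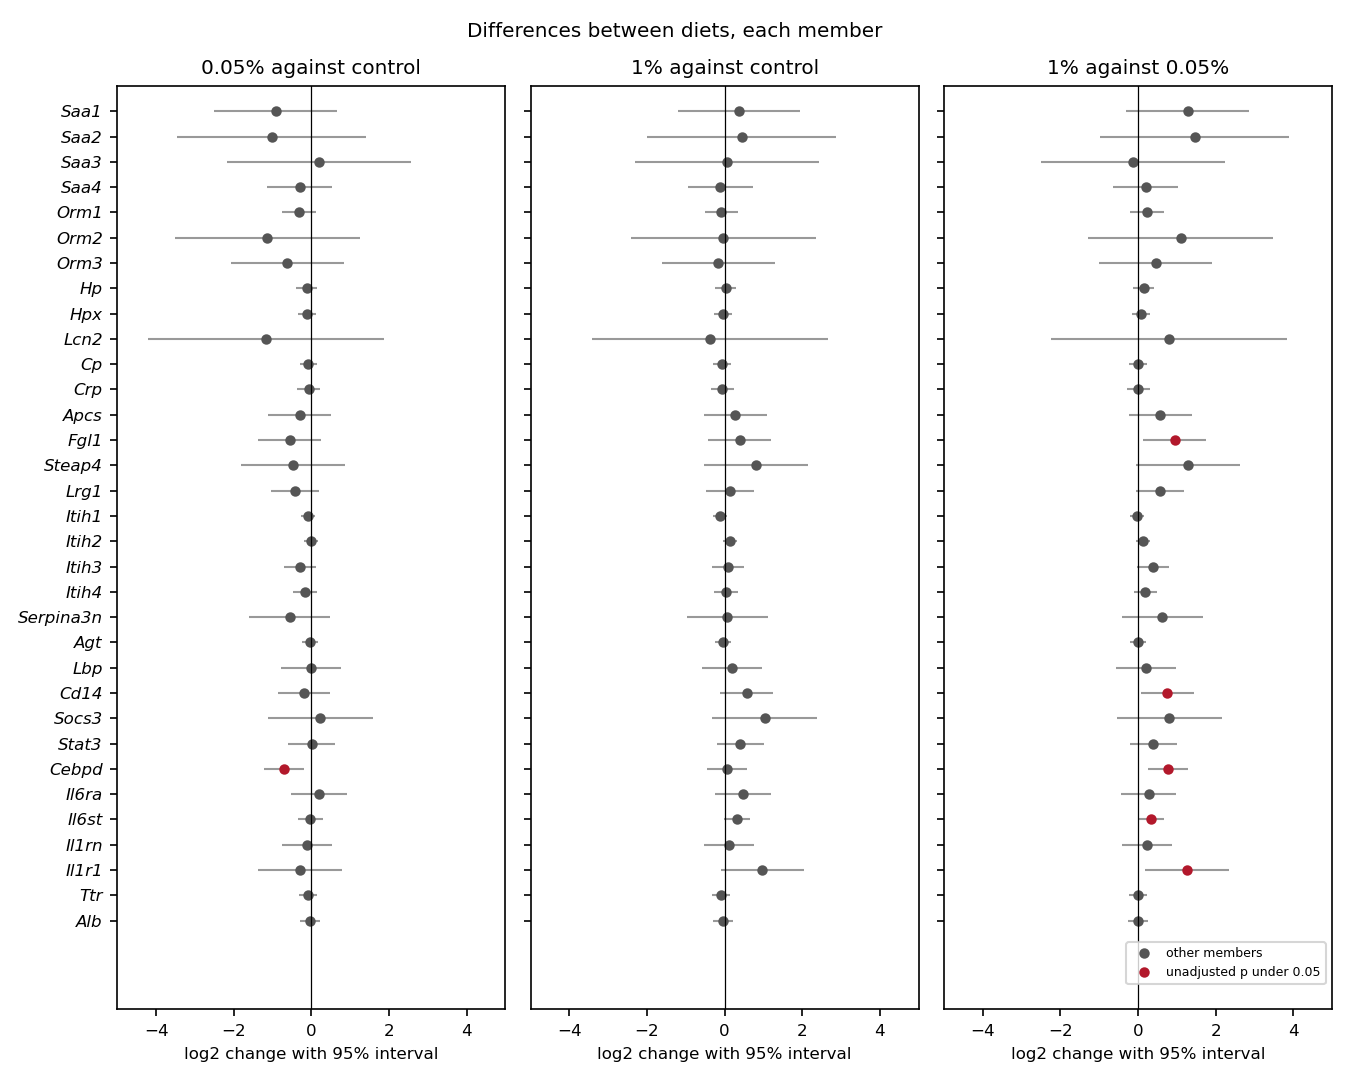
Log2 change of each of the 33 members with its 95% interval in the 3 comparisons, red where the unadjusted limma p was under 0.05. The intervals of Lcn2, Saa2, Orm2 and Saa3 are the widest, and no member's adjusted p was under 0.05.

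Other genes of the same pathways were read from lists chosen by name. Of 22 other acute phase products, 17 were tested and 0 passed the adjusted p in any comparison, with median log2 changes of 0.00 (1% and control), -0.05 (0.05% and control) and 0.06 (1% and 0.05%). The metallothioneins Mt1 and Mt2, metal-binding proteins also induced in the acute phase, had SDs of 2.81 and 2.93 between mice of 1 diet. Mt1 was at 13.3, 12.9 and 12.8 in control replicates 4, 5 and 6 and at 7.11 to 8.18 in the other control mice. In 0.05% mice it was at 13.6 and 13.0 in replicates 2 and 3 and at 7.02 to 7.70 in the others. In 1% mice it was highest in replicate 1 (13.7), then at 13.3 in replicates 5 and 6, 12.3 in replicate 3, 9.93 in replicate 4 and 8.32 in replicate 2. Of 38 other cytokine pathway genes, 32 were tested, Il6, Tnf and Socs1 were below the filter, and 0 passed. At an unadjusted p under 0.05, 9 of the 32 were higher and 0 lower in 1% mice than in 0.05% mice. Of all tested genes, 4.56% were higher and 4.24% lower at that p. Among the 32, the smallest p was that of Socs2, a feedback inhibitor, with 2.59 ± 0.75 (limma adjusted p = 0.374). In 0.05% mice against control 6 of the 32 were lower and 1 higher, against 2.41% and 2.62% of all tested genes. Il1b was at -0.57 ± 0.18, Nfkbiz at -0.69 ± 0.23 and Tnfaip3 at -0.61 ± 0.24 (limma adjusted p 0.842, 0.847 and 0.906). S100a8, a neutrophil marker, was higher in 1% mice than in 0.05% mice by 1.63 ± 0.59 (adjusted p = 0.465).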

How the data were processed

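The deposited values are linear intensity, 1 signal per probe set and array, from 0.0118 to 18108, in a table of 45101 probe sets. The signal software and the scaling behind them that the authors applied were not given in the sources used here. Per the labels' protocols, biotin-labelled RNA of each mouse was hybridised. Of the probe sets, 34945 carried 1 symbol, 932 several and 9160 none, and 64 were controls. Each array was multiplied by 1 factor equalising the median of the tested genes, 16 was added and log2 taken. Genes above the 40th percentile of mean level (4.69) were tested. limma 3.58.1 in R 4.3.3 (lmFit, eBayes) fitted 3 diet means over 18 arrays, with 15 residual degrees of freedom and Benjamini-Hochberg adjustment over 12885 genes. The number of arrays limits the precision. The fit was tested on simulated data. Alternatives were values as deposited, quantile and trimmed mean scaling, other filters and added values, trend and robust eBayes, array weights, the mean of probe sets, a replicate block, a threshold of 0.10, fits of only 12 arrays and fits with 1 array omitted.

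The members and gene lists were chosen with earlier results of these data known. Values are given for the 10 members with the largest residual SD, those at an unadjusted p under 0.05, Ttr, Alb and the regulators, and for up to 3 genes with the smallest p of another list, with the rest by range; genes outside that rule are marked. Replicate numbers did not pair the samples, and cage was unknown. Relations to Saa1 used 100000 permutations within diet, adjusted over all tested genes, which replaced the planned adjustment over the 32 relations after the data were seen.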

Additional observations from a re-analysis of the deposited data

Results flagged for a closer look

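In each of 99 sets of 6 mice (33 members in 3 diets), the highest or lowest mouse was compared with the rest by the share of the range taken up by its gap, and 6 stood apart. About 1 in 20 sets would do so by chance. In 1% replicate 4, Itih1 was lowest at 11.002, Itih3 at 12.25, Itih4 at 12.86 and Cp at 13.11, where the next mouse was at 11.24, 12.54, 13.20 and 13.40. That array had the lowest scaling factor, 0.817. As deposited these genes were at 11.29, 12.54, 13.15 and 13.40 in 1% replicate 4, which was lowest for none of them. The lowest was then 1% replicate 1, at 10.97, 12.30, 13.08 and 13.18. The part of the scaling in these values was not tested. Il6ra was highest in 1% replicate 1 at 9.527, with the next mouse at 8.078. Agt was highest in 0.05% replicate 3 at 11.81, with the next mouse at 11.56. As deposited it was at 11.66 there and at 11.68 in 0.05% replicate 4.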

How the results depend on the processing

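Of 325 values of the counts and medians under alternatives, 271 stayed close to the 12 main ones and 54 moved. The 2871 values of single members moved by less than 1 residual SD. Most fitted changes were themselves smaller than that SD, so this limit is a weak check of stability. Sign changes of values that did not pass were not counted. At an adjusted p under 0.10, 2 genes passed for 1% against 0.05% and 1 for any diet difference. For any diet difference 1 gene passed after quantile normalization, after trimmed mean scaling, with the 60th percentile filter and with array weights. For 1% against control, 0 genes passed as deposited, with the mean of probe sets, with the replicate block and with only the 12 arrays compared, and in that last setting 10 passed for 1% against 0.05%. Members at an unadjusted p under 0.05 for 1% against control were 1 after quantile normalization (Itih2), 1 with eBayes trend and robust (Il6st) and 1 with only the 12 arrays. With array weights there were 5 for 0.05% against control and 9 for 1% against 0.05%, where the replicate block left 3. The shares of all genes at that p were 8.03% and 9.97% with array weights and 8.21% with the replicate block. Mice with the same replicate number correlated between diets with r from -0.45 to 0.33 in their deviations from the diet mean. An order of numbers within a diet was not tested. Leaving out 1 mouse, genes passing ranged from 0 to 3 for 1% against control, 0 to 1 for 0.05% against control, 0 to 1 for 1% against 0.05% and 0 to 3 for any diet difference. Members at an unadjusted p under 0.05 ranged from 0 to 3, 1 to 5 and 1 to 13 in those 3 comparisons. Of all genes, 6.72% to 10.2%, 3.93% to 7.40% and 6.22% to 9.97% were at that p. The members' median ranged from -0.03 to 0.27, -0.34 to -0.09 and 0.18 to 0.50, and their median SD from 0.51 to 0.61. Genes at an unadjusted p under 0.05 were higher in 44.0% of cases for 1% against control and 51.9% for 1% against 0.05%, against 21.8% and 34.04% as deposited. Signal near the added 16 limits Orm3 and Il1rn, and array scale limits the brightest members.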
